A study of Homo sapiens with 4 samples.

Results

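The genes described here encode pore-forming and modifier subunits of voltage-gated potassium channels and the inward-rectifier potassium channels. They were taken from a list of 50 symbols, each over its annotated hg19 gene span, out of 19517 measured protein-coding genes. All 50 were measured, and all lie on autosomes. The protein mapped was macroH2A1, an H2A variant that carries a globular macro domain. It was precipitated with its chromatin and the DNA sequenced (ChIP-seq), from untreated IMR90 cells, a human lung fibroblast line. The series held 4 samples: 2 macroH2A1 ChIP replicates and their 2 inputs, which are chromatin taken before precipitation and enter only through the deposited ratio. The labels describe the ChIP replicates as biological, and no other genotype, treatment or time was studied. The line is a single source of cells, so the values show these cultures and not lung fibroblasts in general.

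A potassium channel opens a pore that lets potassium leave or enter the cell and so sets the resting potential and the shape of electrical signals. Voltage-gated (Kv) subunits assemble as tetramers and open on depolarisation, whereas inward rectifiers (Kir) lack the voltage-sensing segments and hold the membrane near rest. Modifier Kv subunits form no current alone and change the channels of other subunits. Many of these genes are best known from neurons, heart, kidney and glia. MacroH2A1 is commonly found over broad stretches of silent chromatin, and the files hold no measure of expression, so nothing here says which of these channels the cells express.

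Each replicate file divides the genome into segments and gives each segment the authors' deposited log2 ratio of ChIP over input. A gene's log2 ratio below is the mean over its bases, and enriched segments are those above 0 with a deposited −log10 p of 2 or higher. A gene's covered share is the percent of its bases, among those assayed, found in such segments in both replicates alike. A gene was called covered at 50% or more. Resolution differed, as the median segment was 27.4 kb long in replicate 1 and 53.7 kb in replicate 2. Mean linear ratios were 1.01 and 0.995, so values are relative within a library. Fewer cells with the mark and less of it per cell cannot be told apart in a bulk culture. Read depth is unknown from these files, and the error given is the spread of the 2 replicates. With 2 replicates of 1 condition no test between samples could be made, and the genes are set beside all measured genes as a description only.

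Potassium channel genes were covered by macroH2A1 more often than protein-coding genes at large. Of the 50, 23 were covered over at least 50% of their bases in both replicates, or 46%, where the background over all measured genes was 19.2% and over autosomal genes 17.4%. Replicate 1 alone covered 25 of the 50 (background 22.4%) and replicate 2 alone covered 29 (background 25%). The median log2 ratio of the 50 genes was 0.08 in replicate 1 and 0.31 in replicate 2, against -0.88 and -0.75 for all measured genes. At the bottom, 12 of the 50 had no covered base in either replicate, or 24%, against 57.8% of all measured genes. A further 8 were covered in part, which makes 31 genes with any base covered in both (background 30.5%), and the last 7 held enriched bases in a single replicate. KCNJ12 at 53.3% lay just inside the 50% limit, and KCNA2 at 47.4% just outside it.

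**Figure D1:**
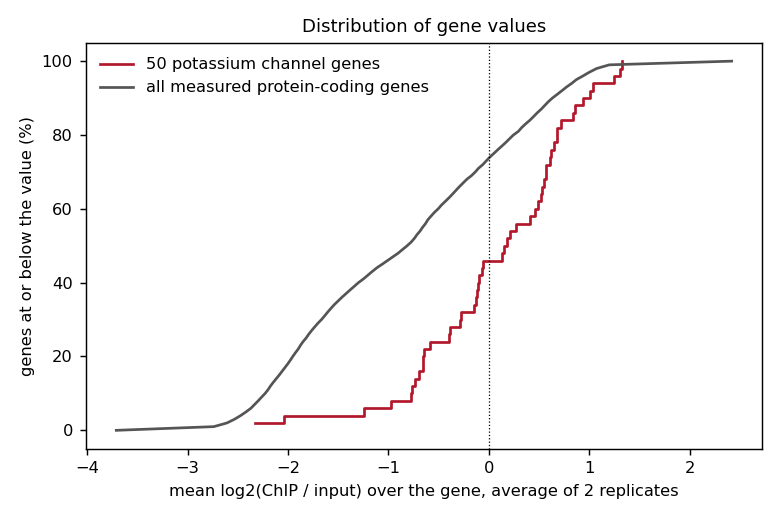
Cumulative percent of genes (y axis) by mean log2 ratio of ChIP over input, averaged over 2 replicates (x axis), for the 50 potassium channel genes and all measured protein-coding genes. The channel genes have a median of 0.16 and all genes one of -0.81, while the lowest channel gene is at -2.32 and the lowest of all genes at -3.71.

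The 50 genes spanned a wide range rather than sharing a level. In replicate 1 they ran from -2.12 to 1.34 and in replicate 2 from -2.53 to 1.47. Both replicates lay above 0 in 26 genes (background 22.8%), both below 0 in 18 (background 69.7%), and the signs differed in 6 (background 7.5%). A log2 ratio below -1 in both replicates, seen in 42.3% of all genes, was found in 3 of the 50, KCNJ13, KCNJ14 and KCNG1. One above 1 in both, seen in 1.88% of all genes, was found in 3 too, KCNJ5, KCNJ15 and KCNJ16. The replicates differed by a median of 0.20 on the log2 scale, and by at most 1.60, at KCNJ2. Their covered shares differed by 50 points or more in 6 of the 50, or 12%, against 7.1% of all measured genes. These were KCNA3, KCNA6, KCNA7, KCNG2, KCNJ2 and KCNJ8.

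**Figure D2:**
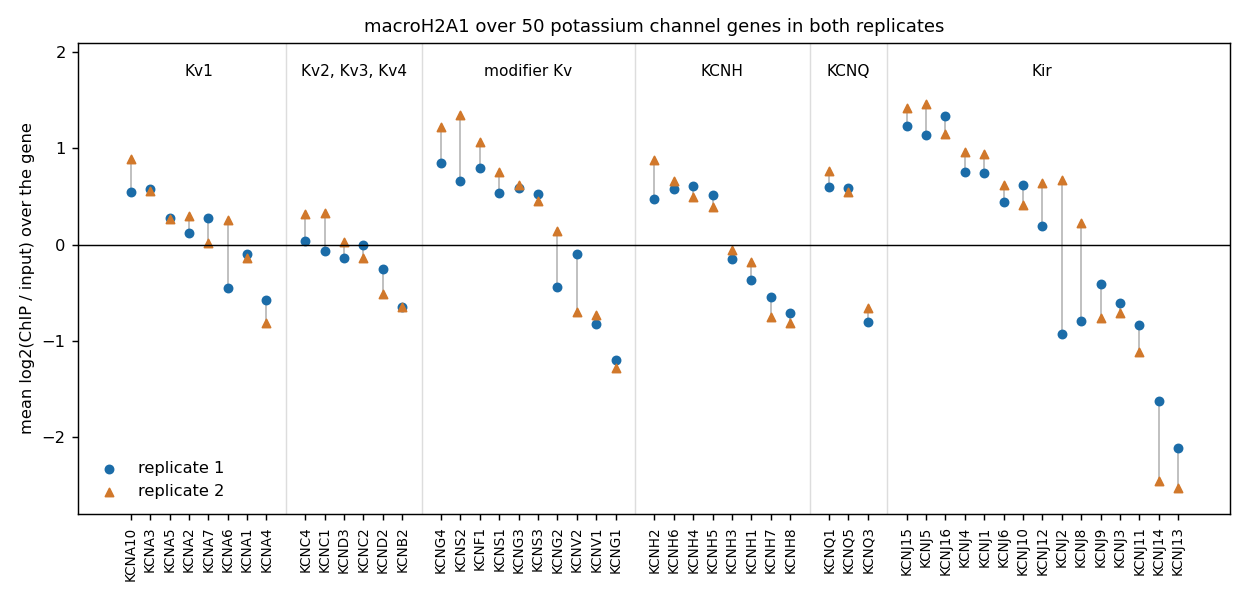
Mean log2 ratio of ChIP over input (y axis) for each of the 50 genes in replicate 1 (circles) and replicate 2 (triangles), grouped by class and ordered by their average. Kir genes run from -2.32 to 1.33 on average, Kv2 to Kv4 genes stay between -0.65 and 0.18, and KCNJ2 and KCNJ8 have the replicates on opposite sides of 0.

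Gene length and base composition were set beside these counts, since long genes and AT-rich genes were covered less often in general. Below 10 kb, 5 of 10 channel genes were covered against a background of 22.3%. Between 10 and 50 kb the count was 9 of 18 (background 19%), between 50 and 200 kb 4 of 10 (background 17.8%), and from 200 kb up 5 of 12 (background 15.8%). The channel genes were thus above the background of their own length in each of these 4 ranges. By GC content the counts were 4 of 12 below 40% GC (background 13.9%), 4 of 11 at 40 to 45% (background 17.5%), 2 of 8 at 45 to 50% (background 21.2%) and 13 of 19 above that (background 23.5%). At 45 to 50% GC the share of channel genes, 25%, was near the background. The median length was 30.4 kb for the channel genes and 28.1 kb for all genes, and the median GC content 47.2% and 45.2%. Whether composition has a part in the result was not tested.

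**Figure D3:**
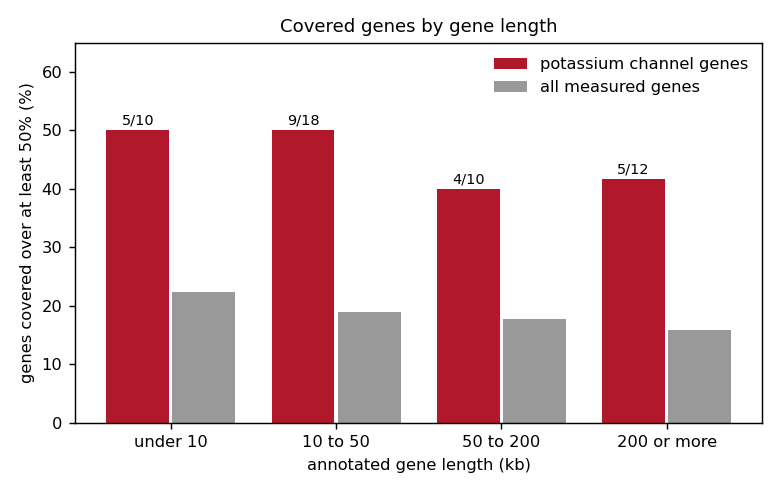
Percent of genes covered over at least 50% of their bases in both replicates (y axis) by annotated gene length in kb (x axis), for the potassium channel genes and all measured genes; the counts over the bars are covered channel genes of all in that range. The channel genes stand at 50%, 50%, 40% and 41.7%, and all genes at 22.3%, 19%, 17.8% and 15.8%.

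Among the 8 Kv1 genes, 2 were covered, 2 were covered in part, 2 were enriched in a single replicate and 2 were not covered at all. KCNA10 (chr1:111059839-111061797) had log2 ratios of 0.54 and 0.89 and KCNA5 (chr12:5153045-5155954), which encodes Kv1.5 of the atrial repolarising current, had 0.28 and 0.27, both with 100% covered. KCNA3, the Kv1.3 channel of T lymphocytes (chr1:111196182-111217562), had 0.58 and 0.56. Its covered share was nonetheless 26.4% in replicate 1 and 100% in replicate 2, because the replicate 1 segment over 73.6% of the gene had a −log10 p of 1.96, just under the limit. The longest coding transcript of KCNA3, of 2.48 kb, lay in enriched segments of both replicates, at 1.28 and 0.56. KCNA4, a rapidly inactivating channel (chr11:30031277-30038577), lay at -0.57 and -0.81 with nothing covered. It sat inside segments of 827 and 770 kb, so its value is that of a wide surrounding region.

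Of the 8 Kv1 genes, 6 lie in 2 clusters, and values differed within each. On chromosome 12, KCNA6 had -0.45 and 0.25, KCNA1, a Kv1.1 channel of axons, -0.10 and -0.14, and KCNA5 the values above, so that only the last of the 3 was covered in both replicates. KCNA6 lies wholly within the gene GALNT8 and changed sign between the replicates, with 0 covered in replicate 1 and 100% in replicate 2. On chromosome 1, KCNA10 lies 0.661 kb from KCNA2 and KCNA2 22.1 kb from KCNA3. The stretch between KCNA2 and KCNA3 stood above all 3 genes, at 1.86 and 1.87. KCNA2, which encodes Kv1.2 of axons and nerve terminals (chr1:111062459-111174096), was enriched at its start and at its far end and not in its middle. The 5 kb centred on its start, called the start window here, had 1.48 and 1.51, while the segment over the middle had -0.21 in replicate 1 and -0.16 in replicate 2 and made up 49.6% and 42.7% of the gene. KCNA7, on chromosome 19, was covered to 100% in replicate 1 at 0.28 and to 0 in replicate 2 at 0.02, in segments with a −log10 p of 2.54 and 0.333.

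Of the 6 Kv2, Kv3 and Kv4 genes 0 reached 50% covered, while 4 were covered in part. The class had the lowest median log2 ratio of the list, -0.06, with averages between -0.65 and 0.18, and its genes are long (median 194 kb). KCNC1, the Kv3.1 channel of fast-spiking neurons (chr11:17756321-17878351), was enriched at its start. Its start window had 1.30 and 0.75, against -0.10 and 0.31 in the rest of the gene. In replicate 2 a single edge lay 57.5 kb into KCNC1, and in replicate 1 one of 3 edges lay at 57.7 kb. KCNC2, which encodes Kv3.2 (chr12:75433857-75603619), was divided the same way by both replicates: 0.41 and 0.23 at the start, and -0.35 and -0.42 beyond an edge at 77.7 kb in replicate 1 and 73.2 kb in replicate 2. SERGEF overlaps 56.3% of KCNC1 and had -0.58 and -0.36 as a whole.

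KCND2 and KCNC4 were enriched at their far ends instead. KCND2, the Kv4.2 channel of the dendritic A-type current (chr7:119913229-120390391), had -0.02 and -0.45 at its start. Replicate 1 had an enriched segment of 0.24 in its interior. Both replicates placed an edge 423.3 and 423.2 kb into it, and beyond that edge replicate 1 had segments of 0.46, 1.80 and 0.59 and replicate 2 one of 0.28. The covered share of KCND2 was 11.3%. KCNC4, a Kv3.4 channel (chr1:110752936-110825722), had -0.04 and 0.20 at its start, both under the limit of enrichment, and 0.42 and 0.65 beyond an edge at 60.1 and 54.3 kb. KCND3, the Kv4.3 channel of the cardiac transient outward current (chr1:112313284-112532290), lay close to 0, at -0.14 and 0.03. In replicate 1 it held 3 short enriched segments of 9.52 to 13.9 kb and in replicate 2 it was a single segment with none. KCNB2, a delayed rectifier (chr8:73449460-73850584), had -0.64 in both with nothing covered.

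The modifier subunits, which join Kv2 channels and alter them, were covered in 6 of 10 genes. KCNG4 (chr16:84252263-84273618) had 0.85 and 1.22, KCNF1 (chr2:11052060-11054351) 0.80 and 1.07, and KCNG3 (chr2:42669157-42721122) 0.59 and 0.62, each covered to 100%. KCNS1 had 0.54 and 0.76 with 91.4% covered. KCNS2 (chr8:99439186-99445081), which lies wholly within STK3, had 0.66 and 1.35 with 74.2% covered, and only 81.7% of its bases were assayed. STK3 as a whole lay at -0.47 and -0.49, so KCNS2 stood above the gene around it.

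KCNS3 was covered to 57.5% over an annotated span of 484 kb, at 0.52 and 0.45. Its longest coding transcript takes up 55.1 kb of that span, and there the log2 ratios were -0.21 and -0.16. The call on KCNS3 therefore belongs to the long annotated span and not to the coding transcript. KCNG1 (chr20:49620193-49639644) was the lowest of the class, at -1.20 and -1.29, in segments of 23.9 and 24.9 kb that hold the whole 19.5-kb gene, while the segments next to it had 0.84 and 0.97 in replicate 1 and 1.13 and 1.08 in replicate 2. KCNV1 had -0.82 and -0.74. KCNV2, a subunit of photoreceptor channels, had -0.09 and -0.70, and PUM3, which overlaps 76.4% of it, had -1.32 and -1.65. KCNG2 had -0.44 and 0.14, with shares of 6.72% and 71% in replicates 1 and 2.

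Of the 8 KCNH genes, 5 were covered. KCNH2 (chr7:150642049-150675409), which encodes the hERG channel of the cardiac rapid delayed rectifier current, had 0.48 and 0.87 with 100% covered. Its start lay in a segment of 1.31 in replicate 1 and 1.57 in replicate 2, and the rest of the gene had 0.41 and 0.82. KCNH6 (chr17:61600695-61626338) had 0.58 and 0.66 and a start of 1.19 and 0.95, with 90.3% covered. KCNH4 (chr17:40308909-40333160) had 0.61 and 0.50 with 86.1% covered. KCNH5 (chr14:63166182-63568755), of the ether-a-go-go channels, was covered to 100% over 403 kb at 0.52 and 0.39. KCNH3 (chr12:49932813-49952120) was covered to 75.4%, yet its mean lay at -0.15 and -0.06, because the part beyond an edge 16.6 and 14.7 kb from its start was low. MCRS1, which overlaps 9.29% of KCNH3 there, had -2.75 and -2.44.

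The 3 KCNH genes that were not covered are 387, 457 and 467 kb long, near the 403 kb of the covered KCNH5. KCNH8 (chr3:19190002-19577134) lay at -0.71 and -0.82, in segments of 1490 and 1510 kb. KCNH7 (chr2:163227917-163695277) had -0.55 and -0.76. KCNH1 (chr1:210850165-211307507) had -0.37 and -0.18, with an enriched segment of 0.20 over its start in replicate 1 and -0.15 there in replicate 2.

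Of the 3 KCNQ genes, 2 were covered. KCNQ5 (chr6:73331520-73908576), a subunit of the neuronal M-current, had 0.59 and 0.54 over 577 kb and was covered to 100%. KCNQ1 (chr11:2465884-2870335), the channel of the slow cardiac delayed rectifier, had 0.60 and 0.77 with 77.7% covered. KCNQ1 was enriched at both ends in both replicates. Its first segment had 0.60 and 0.87 and its last 0.84 and 1.16. In between, replicate 2 had 1 segment of 0.32 and replicate 1 had 7 segments between -0.22 and 1.40. KCNQ3 (chr8:133133108-133493342), the M-current partner, lay at -0.81 and -0.66 with nothing covered.

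The 15 Kir genes held both the highest and the lowest values of the list, with 8 covered, 3 without a covered base, 1 covered in part and 3 covered in replicate 2 alone over some or all of the gene. The G-protein-gated subunits KCNJ5, KCNJ6, KCNJ3 and KCNJ9, which slow the heart and inhibit neurons, differed among themselves. KCNJ5 (chr11:128761251-128791058) had 1.14 and 1.47 and KCNJ6 (chr21:38979675-39493439) 0.45 and 0.61. KCNJ9 (chr1:160051328-160060353) had -0.41 and -0.76 and KCNJ3 (chr2:155554367-155714866) -0.60 and -0.72. KCNJ3 lay in segments of 3360 and 2370 kb, the widest at any of the 50 genes.

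Of the ATP-sensitive subunits, KCNJ11 of pancreatic beta cells had -0.84 and -1.12 and KCNJ8 of vascular muscle -0.79 and 0.22, and neither was covered in both replicates. NCR3LG1, which overlaps 50.4% of KCNJ11, had -1.29 and -1.49, while the annotated start of KCNJ11 had -0.13 and 0.14. The strong rectifiers of the Kir2 group were also unlike. KCNJ4 (chr22:38822332-38851205) had 0.76 and 0.96 with 100% covered, and KCNJ12 0.19 and 0.64 with 53.3% covered. KCNJ12 has near-identical copies elsewhere in the genome, so reads there may be split and its value is uncertain. KCNJ14 (chr19:48958831-48970237) had -1.62 and -2.46 with nothing covered. GRWD1, which overlaps 12.7% of KCNJ14, had -2.45 and -2.46. KCNJ13, which encodes Kir7.1 of the retinal pigment epithelium (chr2:233630512-233641275), was the lowest of the 50, at -2.12 and -2.53. It lies wholly within GIGYF2, a gene of 163 kb with -2.09 and -2.46, and shares segments of 156 and 155 kb with it, so that no value of its own could be read.

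Several Kir genes lie side by side, and of 4 such pairs KCNJ1 and KCNJ5 shared the run that held most of each gene. KCNJ1, the ROMK channel of kidney salt transport (chr11:128706210-128737268), had 0.74 and 0.94 and shared a segment with KCNJ5, 24 kb away, in both replicates. A run of bases enriched in both replicates spanned the pair over 117 kb, and it touched 1 more coding gene, TP53AIP1. Inside KCNJ5 both replicates raised the level 14.7 and 14.8 kb from its start, to 1.90 and 2.00. KCNJ15 (chr21:39527643-39679279) had 1.24 and 1.42 and a run of 308 kb that reached into KCNJ6 on one side and ERG on the other. Its highest segments, 2.16 and 2.62, began 122.8 kb from its annotated start in both replicates. The KCNJ15 start placed from RefSeq lies further into the span, in segments of 1.65 and 1.96. KCNJ6 had 1.28 in a 165-kb segment in the middle of the gene in replicate 2, where the segments of replicate 1 had 0.46 or more. Over 122 kb nearer its annotated start, replicate 1 had -0.22 and replicate 2 had 0.14. The KCNJ6 start placed from RefSeq, however, lies in the enriched middle of the span, in segments of 1.38 and 1.28.

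KCNJ10, the Kir4.1 channel of glia (chr1:159968441-160039950), had 0.62 and 0.41 with 82.6% covered, and the enriched stretch ended 2.2 kb into its neighbour KCNJ9 in both replicates. Beyond that edge KCNJ9 had -0.39 and -1.42 in 2 segments of replicate 1 and -1.23 in replicate 2. KCNJ16 (chr17:68049570-68131749), whose Kir5.1 subunit joins Kir4.1, had 1.34 and 1.15. It lay wholly in segments of 205 and 508 kb, and its shared run of 426 kb touched no other coding gene. KCNJ2, the Kir2.1 channel of muscle and vessels (chr17:68164814-68176185), lies 33.1 kb beyond KCNJ16, and there the replicates disagreed most. Replicate 1 had a segment of 2.32 kb at -3.45 over the start of KCNJ2 and one of 10.7 kb at -0.52 over the rest, between enriched stretches of 0.76 and 0.65. Replicate 2 gave the whole gene 0.67, as part of a segment of 412 kb. The replicates also differed at KCNJ8, with -0.79 in a 16.4-kb segment of replicate 1 and 0.22 in a 231-kb segment of replicate 2. Both genes count as enriched in replicate 2 alone, and the part of segment length in the disagreement was not tested.

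**Figure D4:**
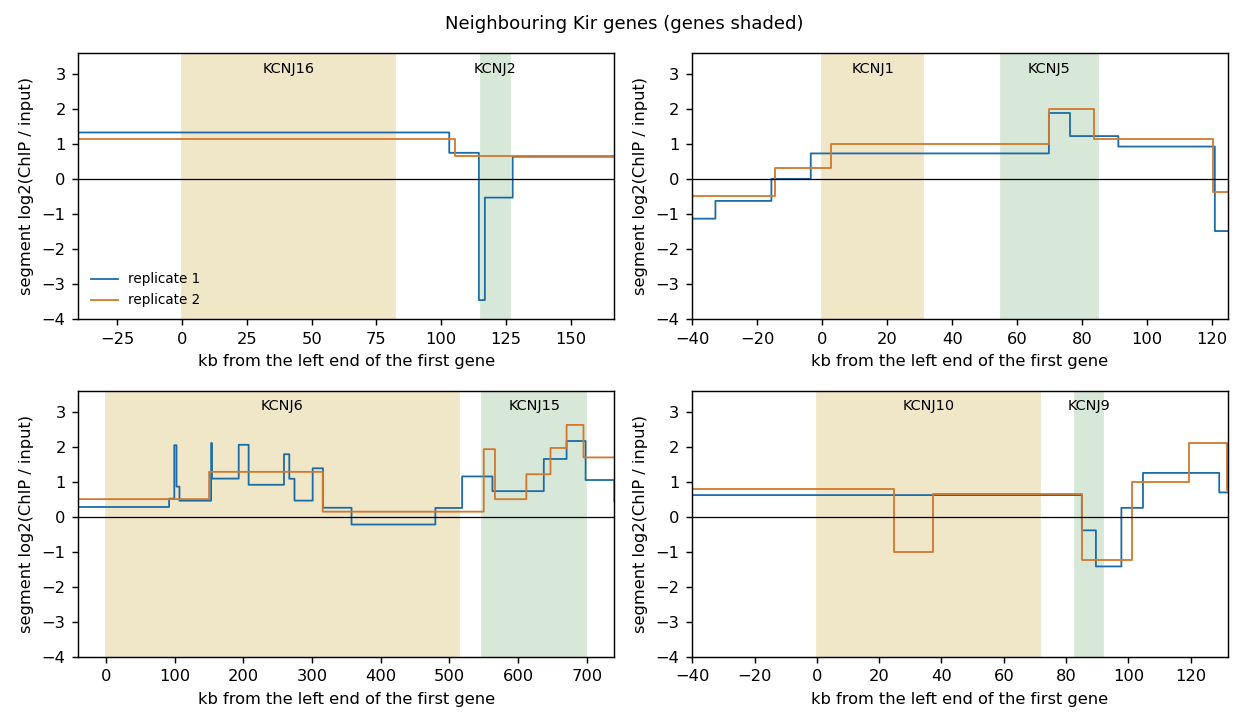
Segment log2 ratio of ChIP over input (y axis) against the distance in kb from the left end of the first gene (x axis) for 4 pairs of neighbouring Kir genes, in replicate 1 and replicate 2; genes are shaded and gaps inside a segment are drawn through. KCNJ1 and KCNJ5 share a segment, KCNJ9 lies past a drop that both replicates show, and KCNJ2 has a segment at -3.45 in replicate 1 alone.

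Start sites were counted apart from the genes. Of 43 genes whose annotated start was assayed in both replicates, 23 starts were enriched in both, or 53.5%, where the background was 21.4%. A further 13 were enriched in neither, 5 in replicate 2 alone and 2 in replicate 1 alone. At starts placed from RefSeq the count was 21 of 36 (background 18.9%). In genes of 50 kb or more, the start window lay above the rest of the gene in both replicates in 8 of 22, or 36.4%. The background was 44.8%. It lay below the rest in 4 of 22 (background 20.1%). No least difference was set, so rounding can count a gene whose start window and rest lie in the same segment. The 8 include such a tie, and the background was counted the same way, so both are approximate. KCNJ16, for example, had 1.34 and 1.15 in its start window and in the rest alike.

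The promoters of covered starts were compared by their CpG content, since CpG-rich promoters belong to many widely used and developmental genes. The CpG ratio is the number of CG pairs over that given by the C and G content, in the 300 bases around the RefSeq start. Among the channel genes, promoters whose start was enriched in both replicates had a median of 22 CG pairs and a ratio of 0.63 (21 genes), and the others 23 pairs and 0.74 (15 genes). Over all measured genes the enriched starts had a median of 9 pairs and a ratio of 0.41 (2637 genes), and the others 23 pairs and 0.80 (11289 genes). A ratio of 0.6 or more was held by 11 of the 21 enriched channel promoters, or 52.4%, against 38.7% of all enriched promoters. Among starts not enriched in both the shares were 11 of 15, or 73.3%, and 71.9%.

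The 5 promoters below show these extremes: the enriched starts with the highest ratio (KCNG3), the lowest ratio (KCNA3) and the highest log2 ratio among CpG-rich ones (KCNH2), and the starts enriched in neither replicate with the highest (KCND3) and the lowest ratio (KCNJ13). Each is the 250 bases before the RefSeq start, read 5′ to 3′ on the gene's strand and placed in GRCh37 (hg19) by exact match, with every CG pair in capitals. The windows of KCNG3, KCNH2, KCND3 and KCNJ13 lie directly before the annotated gene, that of KCNJ13 inside GIGYF2, and that of KCNA3 lies within the annotated KCNA3 span.
KCNG3 (chr2:42721123-42721372, minus strand): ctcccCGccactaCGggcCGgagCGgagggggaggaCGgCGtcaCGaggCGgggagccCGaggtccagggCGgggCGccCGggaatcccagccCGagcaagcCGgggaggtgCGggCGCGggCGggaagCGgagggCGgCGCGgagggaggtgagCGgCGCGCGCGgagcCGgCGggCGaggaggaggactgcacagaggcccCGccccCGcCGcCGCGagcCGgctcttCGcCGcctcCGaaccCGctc
KCNA3 (chr1:111214398-111214647, minus strand): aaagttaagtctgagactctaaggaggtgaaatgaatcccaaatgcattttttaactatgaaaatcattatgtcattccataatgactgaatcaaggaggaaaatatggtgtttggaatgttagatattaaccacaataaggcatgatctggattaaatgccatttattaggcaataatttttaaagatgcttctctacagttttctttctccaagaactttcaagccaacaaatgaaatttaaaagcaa
KCNH2 (chr7:150675410-150675659, minus strand): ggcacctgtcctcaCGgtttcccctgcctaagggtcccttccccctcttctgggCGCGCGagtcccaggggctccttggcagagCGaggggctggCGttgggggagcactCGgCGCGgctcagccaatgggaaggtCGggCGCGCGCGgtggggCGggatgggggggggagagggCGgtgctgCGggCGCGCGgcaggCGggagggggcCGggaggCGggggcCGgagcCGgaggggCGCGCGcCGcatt
KCND3 (chr1:112532291-112532540, minus strand): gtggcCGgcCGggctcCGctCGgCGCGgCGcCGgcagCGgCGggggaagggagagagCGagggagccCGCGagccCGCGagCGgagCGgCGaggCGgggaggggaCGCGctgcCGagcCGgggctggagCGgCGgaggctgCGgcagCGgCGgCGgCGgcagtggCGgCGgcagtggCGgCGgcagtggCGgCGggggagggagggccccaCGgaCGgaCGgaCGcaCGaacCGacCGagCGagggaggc
KCNJ13 (chr2:233641276-233641525, minus strand): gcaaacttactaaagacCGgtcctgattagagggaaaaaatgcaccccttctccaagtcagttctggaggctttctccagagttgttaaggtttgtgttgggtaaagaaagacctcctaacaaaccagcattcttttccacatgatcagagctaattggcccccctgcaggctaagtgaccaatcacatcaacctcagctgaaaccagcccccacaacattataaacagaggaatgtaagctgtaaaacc
KCNG3 has 40 CG pairs in these 250 bases and a start of 0.59 and 0.52, and KCNH2 has 29 pairs and a start of 1.31 and 1.57. KCND3, with 44 pairs, had a start of -0.36 and 0.03. KCNA3, with 0 pairs, had 1.28 and 0.56, and KCNJ13, with 1 pair, -2.12 and -2.53. High and low CpG content each occurred at starts with and without enrichment, but these promoters were picked as extremes and show no trend. The motif searched was CG alone, which reads the same on both strands.

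Set against the 100 kb on either side, channel genes stood above their flanks more often than genes at large. The gene lay above its flanks in both replicates in 27 of the 50, or 54%, against a background of 27.6%. It lay below them in 13, or 26%, against a background of 56.4%. No least difference was set, so rounding can put a gene that shares a segment with its flanks on either side. KCNH8 is among the 13, although gene and flanks alike had -0.71 and -0.82. KCNV1 is too, with -0.74 for both in replicate 2. KCNA4 and KCNJ3 also had the values of their flanks, and the 27 include such a tie. The backgrounds were counted the same way, so all these counts are approximate. Among the wide steps up were 3 KCNH genes with low flanks. KCNH3 had -0.15 and -0.06 with flanks of -1.70 and -1.82, KCNH4 had 0.61 and 0.50 with flanks of -1.05 and -0.86, and KCNH6 had 0.58 and 0.66 with flanks of -0.75 and -0.57. KCNQ1 and KCNJ4 likewise stood above flanks of -0.67 and -0.51 and of -0.53 and -0.60. KCNJ14 and KCNG1 lay below flanks near 0, of -0.17 and -0.06 for KCNJ14 and of -0.01 and 0.05 for KCNG1.

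For the 23 covered genes, the run of shared enriched bases that held the largest part of the gene was measured. Its median length was 117 kb, from 3.57 kb at KCNS2 to 433 kb at KCNJ6. Bases that were not assayed break a run where they span more than 1 kb, so these lengths are lower limits on the enriched stretches, and the counts of runs below rest on the same breaks. KCNQ5, covered to 100% over 577 kb, is broken in this way mainly into runs of 224, 187 and 227 kb. In 12 of the 23 genes over 50% of the run that held the largest part of the gene lay outside it. In 11 of the 23 that run touched no other coding gene. The 23 genes fell in 22 such runs, as KCNJ1 and KCNJ5 shared theirs. Of the 50 genes, 14 lay within a single segment in both replicates and carry that segment's value. No share over all measured genes is set beside these counts of runs and segments, so they describe the channel genes alone.

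Other ion channel genes were counted in the same way, and the background for each count of covered genes is again 19.2% of all measured genes. Among two-pore-domain (K2P) leak channels 5 of 15 were covered and the median log2 ratio was -0.44. KCNK5, KCNK16 and KCNK17 had the same values, -0.67 and -0.30. KCNK15 (0.95 and 1.86) and KCNK3, an acid-sensitive leak channel (1.02 and 1.43), were the highest, and KCNK7 (-2.15 and -2.06) and KCNK6 (-0.95 on average) the lowest. Of the calcium- or sodium-activated channels 4 of 8 were covered, with a median of 0.41. KCNU1 (1.02 and 0.73) and KCNN4 (0.68 and 0.84) led, and KCNT2 (-0.36 and -0.63) and KCNMA1, the large-conductance channel (0.23 and -0.15), were last. Auxiliary subunits were covered in 3 of 17, a share near the background, with a median of -0.49. KCNE1, the partner of KCNQ1 (0.93 and 0.73), and KCNE2 (0.96 and 0.41) were highest, and KCNIP2 (-1.44 and -1.88) and DPP6 (-0.86 on average) lowest.

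Voltage-gated sodium channels were covered in 1 of 9 genes, with a median of -0.02, led by SCN4A (0.60 and 1.01) and SCN10A (0.38 and 0.60), with SCN9A (-1.08 and -1.44) and SCN8A (-0.71 and -0.91) last. Calcium channel alpha1 genes were covered in 5 of 10, with a median near 0 (-0.004), led by CACNA1I (0.97 and 1.24) and CACNA1G (0.83 and 1.27), both of T-type channels, with CACNA1E (-0.69 and -0.40) and CACNA1C (-0.78 and -0.25) last. For scale, 7 genes that mark fibroblasts, among them COL1A1 (-3.34 and -2.92) and VIM (-2.25 and -2.65), had a median of -2.40 with 0 covered. A ChIP ratio cannot check the cell label.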

How the data were processed

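MacroH2A1 ChIP and input DNA of IMR90 fibroblasts were sequenced, with 2 replicates each, per the labels' protocols. The submitters' processing notes name CASAVA 1.7 and hg19. For the aligner, segmentation program and input scaling, the sources used here give no name. Per the file headers, each ChIP replicate has its own segmentation. The authors deposited a log2 ratio of ChIP over input per segment; its base was inferred, because the mean linear ratio per replicate came to 1.01 and 0.995 in base 2, but to 1.15 and 1.12 with natural logs. They also deposited a −log10 p-value, listed as 0 in 68.5% and 68.6% of segments below 0 and used only to call enrichment. Depth is unknown, so no counting interval is given. No test was planned or run.

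Genes were GENCODE 44 spans on GRCh37, the same build as hg19, outside chromosome Y, with 50% of bases assayed in both replicates. Bases in gaps between the blocks of a segment counted as not assayed. RefSeq promoters (GRCh38 table) were matched by symbol to 37 of the 50 genes and placed by exact match in GRCh37. Runs join shared enriched pieces within 1 kb. Genes given in full were, per class, the 2 highest and 2 lowest, those covered, those whose share differed by 50 points and those with edges in both replicates. The members and lists were chosen with earlier results of these data known. Alternatives changed the limits on p, ratio and share, the gene span, the gaps and the replicates used. Interval code was tested on simulated segmentations. Python 3.11.15, numpy 2.4.6 and pandas 2.3.3 were used.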

Additional observations from a re-analysis of the deposited data

How the results depend on the processing

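No paired analysis was possible because the result comes from no test and only ChIP replicates have files here. The count of covered channel genes (23) was 29 and 25 when a replicate was left out (the other alone), 15 with a log2 ratio above 0.5 in place of 0 (11.2% of all measured genes) and 15 with 90% of bases in place of 50% (background 13.8%). It stayed within 1.5 times of 23 with a −log10 p of 5 (20; 16.2% of all genes), no p limit (25; 23.3%), any covered base (31; 30.5%), the longest coding transcript (23), whole segments (23) and the start window (28; 21.4%), and, chosen after seeing the data, without the 5 longest genes (20) or counting each run once (22). The median log2 ratio (0.16) was 0.31 and 0.08 in single replicates, 0.34 in the 5-kb start window and 0.07 as a mean. Enriched starts were 23 of 43 assayed in both replicates (background 21.4%). They were 16 at a log2 ratio above 0.5 (13.3% of all genes) and 18 with a −log10 p of 5 (17.9%). In single replicates they were 28 and 25, and no share over all genes is given for these. The count of 28 in the start window, given above, is of all 50 genes and not of the 43 starts. In the start window the sign reversed for KCNC2 (0.32), KCNH1 (0.024), KCNH3 (0.49), KCNJ9 (0.55) and KCNJ11 (0.005), whose starts were higher than the rest of the gene. The windows of KCNH1 (0.20 and -0.15) and KCNJ11 (-0.13 and 0.14) had opposite signs in the replicates, so these averages near 0 show no clear reversal. KCNG2, whose replicates differ in sign over the gene, had 0.73 in the start window against -0.15 over the gene. KCNS3 reversed over its longest coding transcript (-0.19), and KCNA3 rose to 0.92 over its own. The 23 genes covered by transcript are therefore not the same as the 23 covered by span. Short peaks or dips inside a segment cannot be seen, and less so in replicate 2.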
